A study of Mus musculus with 79 samples.

Results

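Central leptin was given to mice that also carried a subcutaneous insulin pellet, and RNA from their caudal vertebrae (CV) was compared with that of insulin-treated mice given PBS. The comparison holds 11 of the 79 libraries of the series, chosen by the treatment in their titles. The 6 leptin + insulin mice and the 5 PBS + insulin mice were WT males (BMAd-*Pnpla2*+/+, mixed SJL and C57BL/6 background) of 4 to 5 months by the labels. The study's text gives other ages for its insulin-treated mice, so that the groups are of equal age is not certain. The first group received leptin at 100 ng per h into the cerebral ventricles (ICV) for 9 days, and the second received ICV PBS for the same 9 days. All 11 mice had the insulin pellet, and feeding was paired between leptin and PBS mice. Males of the same strain and labelled age without insulin (8 leptin and 5 PBS mice) gave the reference leptin effect. WT females without insulin (5 leptin and 5 PBS mice) were used to choose leptin-responsive genes in animals that enter neither male comparison. Mice lacking the lipase ATGL in marrow adipocytes (BMAd-*Pnpla2*-/-), without insulin, are described last. These were 4 leptin and 5 PBS males, and 4 leptin and 4 PBS females. All groups without insulin had the same leptin dose, the same 9 days and a labelled age of 4 to 5 months. Each library is from 1 mouse. By their numbers, the caudal vertebral, inguinal fat and lumbar vertebral libraries of the WT females come from the same mice.

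Leptin acts on the brain to lower food intake and to mobilise fat, and ICV infusion also lowers circulating insulin and glucose. Insulin is the main hormone that holds fat cells in storage: it restrains triglyceride breakdown by lipases and promotes fatty acid synthesis and uptake. The caudal vertebrae of the mouse are filled with constitutive bone marrow adipose tissue (cBMAT), a fat that resists loss under most conditions. The design addressed which leptin responses of this tissue remained when insulin was supplied.

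The 11 libraries held 17765021 to 18487233 counts, with medians of 17923410 in leptin + insulin and 18181046 in PBS + insulin mice. Markers of skeletal muscle, adipocytes, cartilage, bone and blood cells were all present, so a changed level can come from fewer cells of a type or from less RNA per cell, and bulk RNA cannot tell these apart. Leptin + insulin replicate 4 stood apart. It had the highest summed muscle markers of the 11 (65310 TPM, a read count scaled for gene length and library size, against 35470 to 59780 in the others) and the lowest summed adipocyte markers (8653 TPM against 10660 to 16440). Leptin + insulin replicate 3 stood apart in the other direction, with its adipocyte markers at 15360 TPM. Mouse numbers fall in runs: the 330s hold leptin replicates 1 and 2 and PBS replicates 1 and 2, the 370s hold leptin replicate 3 and PBS replicates 3, 4 and 5, and the 450s hold leptin replicates 4, 5 and 6 with no PBS mouse. All the mice without insulin have other numbers, so the run of numbers and the insulin pellet cannot be told apart between the insulin and no-insulin groups.

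With insulin, leptin changed 83 of 14873 tested genes (0.558%), 21 higher (0.141%) and 62 lower (0.417%), in edgeR's quasi-likelihood test at an adjusted p below 0.05 and a log2 change of at least 0.5. Without insulin the same fit called 367 genes in males (2.47%), 192 higher (1.29%) and 175 lower (1.18%), and in females 749 (5.04%). With insulin 131 genes (0.881%) passed the adjusted p at any fold and 2312 (15.5%) an unadjusted p of 0.05. Of the 83 genes, 37 were also called in males without insulin and 44 in females without insulin, all in the same direction, and 36 were called in neither. The groups did not overlap in TPM for 57 of the 83, beside 439 of all tested genes (2.95%) with insulin and 326 (2.19%) without. Without the 3 mice of the 450s 3 genes were called, *Madcam1*, *Slc22a14* and *2010106E10Rik*, all higher. That fit also holds fewer leptin + insulin mice, and leaving out 3 others was not run. A smaller group and the absence of the 450s therefore cannot be told apart. The median size of the log2 change of the 83 went from 0.75 to 0.66 in that fit. Since they were chosen in a fit that holds the same remaining mice, their direction there is largely set by the choice. The count also fell to 9 without PBS + insulin replicate 2, to 25 and 30 without PBS + insulin replicates 3 and 1, to 38 without PBS + insulin replicate 5, and to 27, 29 and 54 without leptin + insulin replicates 5, 6 and 1. Without leptin + insulin replicate 3 more genes were called, 49 higher and 128 lower.

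Promoters are shown for 3 of the called genes described next: *Madcam1*, and a rise and a fall (*Slc39a8* and *Mgll*) whose printed windows hold a searched motif. RefSeq promoters (GRCm38.p6) were matched for 45 of the 62 lower and 18 of the 21 higher genes, and the 250 bases before the start were searched on both strands. The E-box was searched as CACGTG and the FoxO motif as TGTTTAC. The GATA motif was searched as AGATAAG, the cyclic AMP response element as TGACGTCA and the sterol response element as TCACNCCAC. The E-box was in 4 of 45 lower and 2 of 18 higher promoters (8.89% and 11.1%, beside 9.35% of 11740 tested genes with a promoter). The FoxO letters were in 2 of 45 and 2 of 18 (beside 2.77%), the GATA letters in 0 of 45 and 2 of 18 (beside 2.39%), the cyclic AMP element in 2 of 45 and 0 of 18 (beside 2.75%) and the sterol element in 0 of 45 and 0 of 18 (beside 1.23%). Capitals mark matches: a FoxO match (reverse strand) and an E-box in *Mgll*, an E-box and a GATA match (reverse strand) in *Slc39a8*, and none in *Madcam1*. *Mgll* and *Slc39a8* each have another promoter window, not printed, in which no searched motif was found. Each is on the plus strand, at chr10:79664309-79664558 for *Madcam1*, chr6:88724162-88724411 for *Mgll* and chr3:135825407-135825656 for *Slc39a8*.
Madcam1: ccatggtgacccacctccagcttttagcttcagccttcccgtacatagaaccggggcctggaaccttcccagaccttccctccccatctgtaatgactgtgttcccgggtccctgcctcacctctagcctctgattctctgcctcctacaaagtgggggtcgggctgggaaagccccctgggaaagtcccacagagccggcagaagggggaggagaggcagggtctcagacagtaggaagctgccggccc
Mgll: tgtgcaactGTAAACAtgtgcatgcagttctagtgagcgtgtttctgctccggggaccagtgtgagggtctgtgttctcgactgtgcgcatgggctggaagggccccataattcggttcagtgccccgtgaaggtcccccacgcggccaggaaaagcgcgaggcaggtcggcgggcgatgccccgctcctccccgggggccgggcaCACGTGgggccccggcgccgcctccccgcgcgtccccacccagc
Slc39a8: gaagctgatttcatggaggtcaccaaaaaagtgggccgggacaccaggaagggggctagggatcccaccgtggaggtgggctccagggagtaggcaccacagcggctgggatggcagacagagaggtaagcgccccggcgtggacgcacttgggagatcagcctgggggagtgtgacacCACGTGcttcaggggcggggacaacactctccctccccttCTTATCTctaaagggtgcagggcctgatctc

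*Madcam1* (mucosal addressin, the endothelial ligand for a gut-homing integrin of lymphocytes, chromosome 10, 79664559 to 79668542 in GRCm38.p6) had a rise whose call did not depend on any setting tried. Its levels in PBS + insulin mice were 8.02, 4.37, 7.22, 8.49 and 7.59 TPM, and in leptin + insulin mice they ran from 10.81 to 38.6 TPM with a median of 24.64. The lowest leptin + insulin value, in replicate 4, lay above every PBS + insulin value. The log2 change was 1.81 ± 0.28 (SE; n = 6 and 5; edgeR adjusted p = 0.0062), beside 2.39 in males without insulin (33.6 ± 9.41 against 6.17 ± 2.16 TPM, SD) and 2.59 in females. It was 2.03 without the 450s (edgeR adjusted p = 0.0039) and stayed past the threshold under all 36 settings tried. In female WT mice on PBS, *Madcam1* was at 8.16 ± 2.55 TPM in CV, 8.26 ± 3.4 in inguinal white fat (iWAT) and 0.064 ± 0.0313 in lumbar vertebrae (LV), which hold little fat (SD, the same 5 mice in each tissue). Female mice on leptin had 51.1 ± 9.29 TPM in CV and 4.63 ± 3.55 in iWAT, where the mean was below that of PBS mice.

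*Slc22a14*, a transporter of the SLC22 family, and the unnamed gene *2010106E10Rik* were the other rises called without the 450s. *Slc22a14* was named after its values were seen, since it is below the level set for named genes. It was at 0.2, 0.12, 0.08, 0.24 and 0.21 TPM in PBS + insulin mice and at 0.45 to 1.82 TPM (median 1.41) in leptin + insulin mice, a log2 change of 2.88 ± 0.39 (SE; edgeR adjusted p = 0.0016). *2010106E10Rik*, on the X chromosome, was at 2.92, 2.9, 2.31, 1.54 and 1.24 TPM with PBS and at 3.98 to 23.76 TPM (median 8.36) with leptin, where replicate 6 was the highest. The groups overlapped for neither gene. *Mpzl3*, a myelin protein zero-like membrane protein, and *2700097O09Rik*, an unnamed gene, were higher with insulin (log2 changes of 0.96 and 0.76, edgeR adjusted p = 0.0295 and 0.0173) where the estimates without it were 0.26 and -0.07.

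3 further rises of the 21 called are described here. *Cyp4b1*, a cytochrome P450 that hydroxylates fatty acids, was at 20.77, 18.88, 19.08, 24.32 and 15.47 TPM with PBS and at 24.39 to 46.78 TPM (median 34.84) with leptin. Its log2 change of 0.87 ± 0.16 (SE; edgeR adjusted p = 0.0141) was close in size to the 0.97 without insulin, and the difference between them was -0.10 (95% interval -0.55 to 0.34). *Slc27a1*, which encodes the fatty acid transporter FATP1, was at 31.52, 36.13, 31.72, 35.21 and 36.7 TPM with PBS and at 36.64 to 83.85 TPM (median 52.09) with leptin, so the groups overlapped by 1 mouse (edgeR adjusted p = 0.0355). It was the 1 called of 15 genes of fatty acid uptake and transport, whose median log2 change was 0.03. *Slc39a8*, the zinc and manganese importer ZIP8, was at 7.56 to 9.97 TPM with PBS and 10.28 to 20.35 TPM with leptin (edgeR adjusted p = 0.0444). These 3 genes kept their direction but missed the threshold without the 450s, with log2 changes of 0.92, 0.47 and 0.52.

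**Figure D1:**
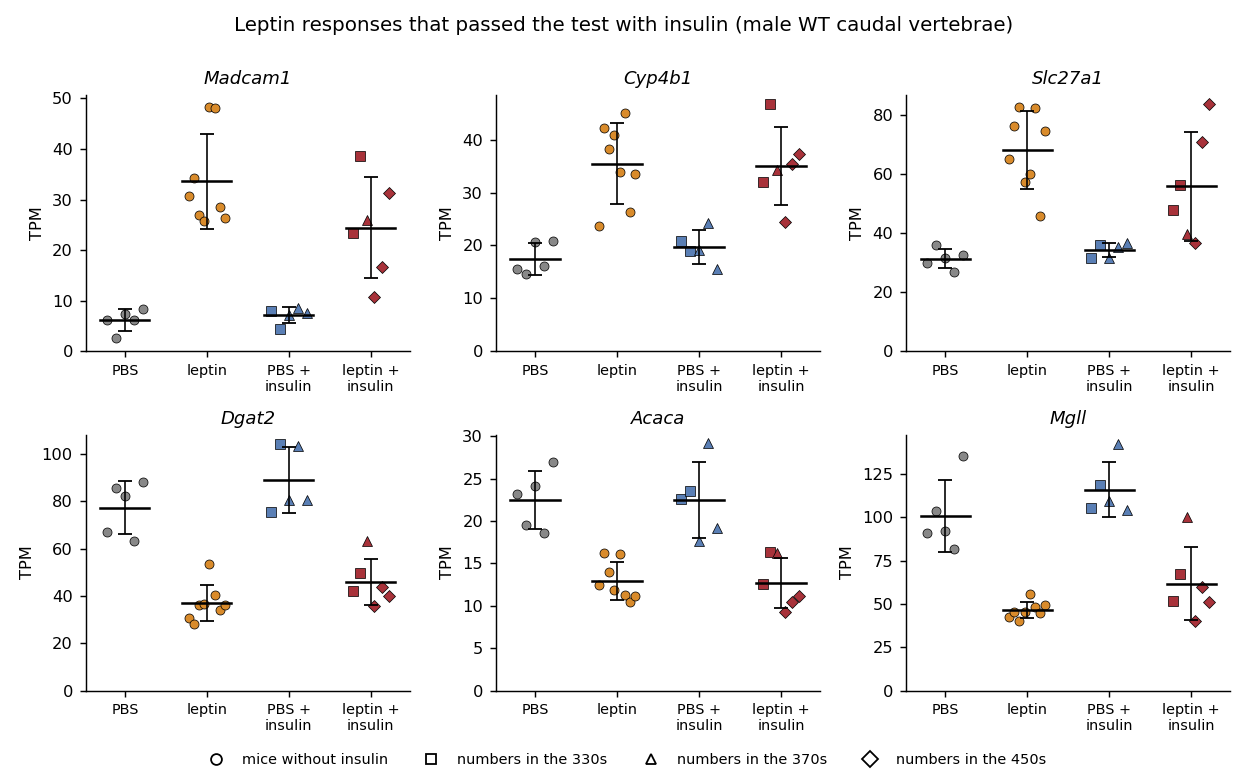
Level in TPM of 6 genes in the CV of male WT mice by group, 1 point per mouse, with the mean and SD (n = 5 PBS, 8 leptin, 5 PBS + insulin and 6 leptin + insulin). Marker shape gives the run of mouse numbers in the insulin groups. *Madcam1*, *Cyp4b1* and *Slc27a1* were higher and *Dgat2*, *Acaca* and *Mgll* lower with leptin whether or not insulin was given, and the triangle in the leptin + insulin column, replicate 3, lay nearest the PBS + insulin mice for *Dgat2* and *Mgll*.

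Haemoglobin genes rose with leptin in insulin-treated mice. Of 12 erythroid markers tested, 4 were called higher (*Alas2*, *Hba-a1*, *Hba-a2* and *Hbb-bs*) and none lower, where the background was 0.141% of genes higher and 0.417% lower. Another 4 had a negative change, and the median of the 12 was 0.40. Without insulin 5 were called higher and 1 lower in males (beside 1.29% and 1.18% of genes). In females 4 were called higher and 2 lower (beside 2.78% and 2.25%). *Alas2*, the first enzyme of haem synthesis in red cell precursors, was at 8.69, 3.45, 8.47, 14.19 and 11.48 TPM with PBS and at 15.0 to 50.32 TPM (median 24.45) with leptin. Its log2 change of 1.65 ± 0.34 (SE; edgeR adjusted p = 0.0209) compares with 1.80 in males and 2.00 in females without insulin. *Hba-a1* was at 552.3 to 2115 TPM with PBS and 2553 to 6858 TPM with leptin, and the groups did not overlap. In leptin + insulin mice the medians of *Hba-a1*, *Hba-a2* and *Hbb-bs* were 3462, 2112 and 3243 TPM. The median sum of the 12 markers was 9477 TPM, so that sum is largely made of globin genes. *Hba-a1* and *Hba-a2* are near-identical copies, as are *Hbb-bs* and *Hbb-bt*, so how reads were split within each pair is uncertain. *Gata1* and *Klf1*, transcription factors of nucleated erythroid precursors, had log2 changes of -0.0048 and 0.54 with adjusted p of 0.999 and 0.659 (edgeR). The median log2 change of the 12 markers differed between the runs of numbers: it was 1.25 within the 330s and -0.07 within the 370s.

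3 genes of fat storage were called lower, *Dgat2*, *Acaca* and *Me1*. *Dgat2*, which joins the last fatty acid to make triglyceride (chromosome 7, 99153663 to 99182713), was at 75.29, 104.3, 80.31, 103.5 and 80.69 TPM in PBS + insulin mice and at 35.56 to 63.21 TPM (median 43.02) in leptin + insulin mice. The 6 leptin values lay below the 5 PBS values, and the log2 change was -0.91 ± 0.15 (SE; edgeR adjusted p = 0.0077) beside -1.11 without insulin. *Acaca*, acetyl-CoA carboxylase, which makes the malonyl-CoA that fatty acid synthesis starts from, was at 17.64 to 29.19 TPM (median 22.6) with PBS and at 9.29 to 16.34 TPM (median 11.9) with leptin. Its log2 change was -0.78 ± 0.13 (SE; edgeR adjusted p = 0.00918) with insulin and -0.85 without, a difference of 0.07 (95% interval -0.31 to 0.44). *Me1*, the malic enzyme that supplies NADPH to that pathway, had a log2 change of -0.57 (edgeR adjusted p = 0.0288) and groups that did not overlap. Summed adipocyte markers were at 8653 to 15360 TPM with leptin and 13330 to 16440 TPM with PBS, 9 of the 11 had a negative change, *Lep* alone was called, and their median log2 change was -0.39. The part of adipocyte content in the falls of fat genes was not tested.

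Across the 20 genes of de novo lipogenesis, these data called 2 lower (*Acaca* and *Me1*) and none higher, where the background was 0.417% of genes lower, and 18 had a negative change. The median log2 change was -0.25 with insulin, -0.12 without insulin and 0.01 over all tested genes with insulin. *Fasn*, fatty acid synthase, had an estimate of -0.92 with and without insulin, but -0.56 with it once the 450s were left out. With insulin it missed the threshold (edgeR adjusted p = 0.0542), as did the desaturase *Scd1* (-0.95, edgeR adjusted p = 0.0566). *Srebf1*, the transcription factor through which insulin promotes lipogenic genes, had a log2 change of -0.28 (edgeR adjusted p = 0.259). Of 14 genes of triglyceride synthesis and glyceroneogenesis *Dgat2* alone was called. *Agpat2*, an earlier enzyme of that pathway, had a log2 change of -0.46 (edgeR adjusted p = 0.191), and the scavenger receptor *Cd36* -0.12 (edgeR adjusted p = 0.774).

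The study listed 18 genes of lipolysis that leptin changed in these CV libraries. Their direction and size without insulin are thus how they were chosen and are no independent evidence. Such a choice favours larger estimates and more calls without insulin, so smaller ones with insulin are in part set by it. With insulin 6 of the 18 were called, all lower, beside 18 of 18 without insulin (17 lower and 1 higher). The background was 0.417% of genes lower with insulin, and 1.18% lower and 1.29% higher without. The median log2 change was -0.57 with insulin and -0.89 without, and 17 of the 18 were lower in each. The 6 were *Mgll*, *Adora1*, *Sucnr1*, *Tshr*, *Plin4* and *Mmd*. *Mgll*, the lipase that cleaves the last fatty acid from glycerol, was at 105.1, 118.5, 109.2, 142.6 and 104.2 TPM with PBS and at 39.89 to 100.4 TPM (median 55.86) with leptin, where replicate 3 was the highest. Its log2 change was -0.87 ± 0.16 (SE; edgeR adjusted p = 0.0141).

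Receptors that act on adipocyte cyclic AMP were among those that fell. *Adora1*, the adenosine receptor that restrains lipolysis through an inhibitory G protein, was at 2.92, 3.65, 3.23, 4.48 and 4.15 TPM with PBS and 1.07 to 2.43 TPM (median 1.99) with leptin. Its fall was smaller with insulin (-0.94) than without (-1.73), with a difference of 0.79 (95% interval 0.28 to 1.30; unadjusted p = 0.0038, edgeR adjusted p = 0.522). *Sucnr1*, the succinate receptor, and *Tshr*, the thyrotropin receptor, had log2 changes of -1.21 and -0.81 (edgeR adjusted p = 0.0497 and 0.0426), and their groups did not overlap. *Plin4*, a lipid droplet coat protein, and *Mmd*, of the progestin and adiponectin receptor family, had log2 changes of -0.65 and -0.58 (edgeR adjusted p = 0.0373 and 0.0489) and overlapping groups. None of the 6 passed the threshold without the 450s.

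The other 12 missed the threshold with insulin. *Aoc3*, *Plin1*, *Lipe* and *Plaat3* had log2 changes of -0.90, -0.88, -0.67 and -0.48, and edgeR adjusted p of 0.0663, 0.0755, 0.085 and 0.0576. *Plin1* coats the droplet, *Lipe* is hormone-sensitive lipase and *Aoc3* is an amine oxidase of the adipocyte surface. *G0s2*, the inhibitor of the lipase ATGL, had the widest gap: it was at 118.7 to 201.8 TPM (median 168.7) in PBS + insulin mice and 67.07 to 194.6 TPM (median 94.47) in leptin + insulin mice. Its log2 change was -0.55 (edgeR adjusted p = 0.305) with insulin and -1.92 without, a difference of 1.37 (95% interval 0.62 to 2.12; unadjusted p = 0.000978, edgeR adjusted p = 0.504). *Acvr1c*, the activin receptor ALK7, and *Npr3*, the natriuretic peptide clearance receptor, had log2 changes of -0.22 and -0.20 with insulin and -0.59 and -0.51 without. The intervals of these differences, -0.05 to 0.80 and -0.13 to 0.74, include 0. *Ces1f*, a carboxylesterase, was the 1 gene of the list with a positive change (0.77, edgeR adjusted p = 0.147). *Pnpla2*, which encodes ATGL itself and is intact in these mice, had a log2 change of 0.20 (edgeR adjusted p = 0.583).

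**Figure D2:**
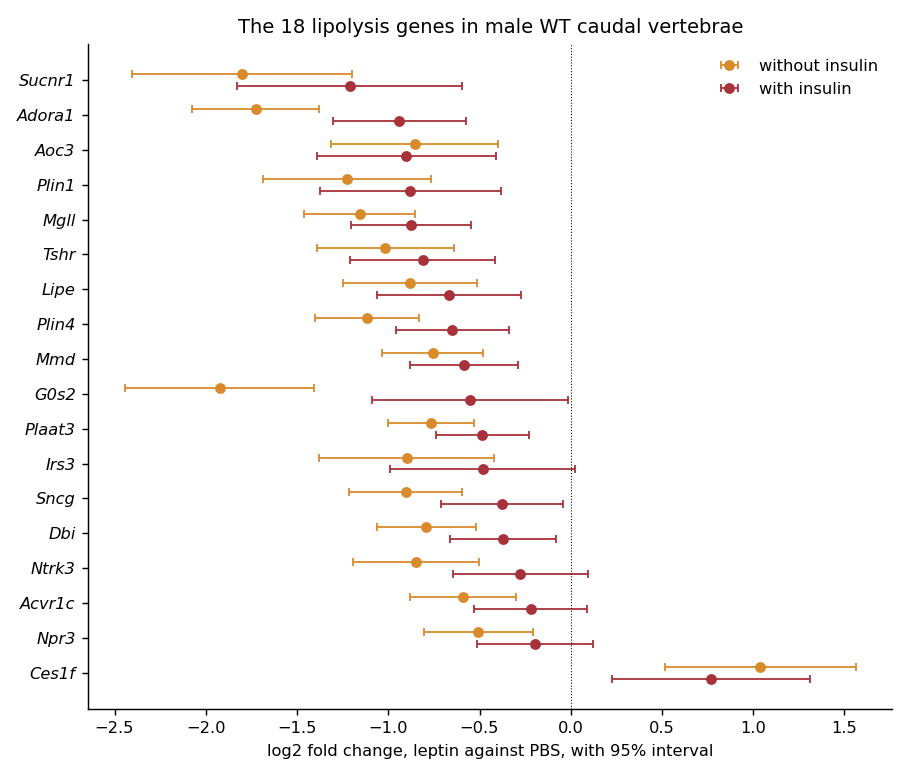
Log2 fold change of leptin against PBS, with its 95% interval, for the 18 lipolysis genes in male WT CV without insulin (8 and 5 mice) and with insulin (6 and 5 mice). With insulin 17 of 18 estimates were negative, most of them nearer 0 than without it, and *G0s2* moved the farthest, from -1.92 to -0.55. The genes were chosen on their change without insulin, which favours larger estimates there.

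Other genes outside the lists fell with insulin present. *Glb1l2*, a galactosidase-like gene, was at 19.83, 22.8, 21.82, 20.62 and 21.16 TPM with PBS and at 4.45 to 16.07 TPM (median 6.79) with leptin. In female WT mice on PBS it was at 24.8 ± 4.56 TPM in CV, 73.1 ± 12.9 in iWAT and 0.122 ± 0.055 in LV. Its fall was -1.34 with insulin and -2.41 without (unadjusted p of the difference = 0.00665, edgeR adjusted p = 0.529). *Slc16a12*, a monocarboxylate transporter family member, fell by 1.18 on the log2 scale with insulin and by 1.24 without. *Mest*, an imprinted gene linked to adipocyte size, was at 62.1 to 105.4 TPM with PBS and at 9.92 to 60.48 TPM (median 20.08) with leptin, where replicate 3 was the highest and still below the PBS mice. In female WT mice on PBS *Mest* was at 52.4 ± 12.7 TPM in CV, 9.73 ± 3.80 in iWAT and 2.93 ± 0.337 in LV (SD). The homeobox gene *Meox1* and the alanine aminotransferase gene *Gpt* fell by 0.95 and 1.32 (edgeR adjusted p = 0.0193 and 0.0444).

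Some falls had larger estimates with insulin than without it. Among genes called in both sexes without insulin, the share of the male effect kept with insulin was highest for *Gsta4* (144.8%), *Nmnat2* and *Meox1* (129.7% each), *Olfml2a* (119%) and *Scd1* (112%). The unadjusted p of the difference was 0.202 to 0.759 for these 5 genes. Without the 450s the changes of *Meox1*, *Olfml2a* and *Scd1* were -0.71, -0.58 and -0.64, smaller than the -0.73, -0.63 and -0.85 without insulin. *Gsta4*, a glutathione transferase that clears lipid aldehydes, went from 62.9 ± 10.75 to 34.5 ± 8.52 TPM (SD, n = 5 and 6; edgeR adjusted p = 0.00918). *Col15a1*, a collagen of basement membrane zones, was at 16.03, 14.75, 12.38, 9.61 and 14.27 TPM with PBS and 4.12 to 7.77 TPM (median 6.15) with leptin, a log2 change of -1.13 against -0.32 without insulin (unadjusted p of the difference = 0.011, edgeR adjusted p = 0.529). *Col11a1*, a fibrillar collagen of cartilage, was at 41.87 to 59.01 TPM with PBS and 20.98 to 31.43 TPM with leptin (log2 change -0.90, edgeR adjusted p = 0.0453), beside -0.12 in males and 0.67 in females without insulin. Mean *Col11a1* was 51.1 TPM in PBS + insulin mice against 31.8 and 31.3 TPM in PBS and leptin mice without insulin, a difference in which insulin and the run of numbers cannot be told apart, and 26.5 TPM in leptin + insulin mice. *Comp*, a cartilage matrix protein, was the 1 of 12 cartilage markers called (log2 change -0.65, edgeR adjusted p = 0.031). All 12 had a negative change, their median was -0.51, and their summed level was 1234 to 1775 TPM with leptin and 1792 to 2516 TPM with PBS, so the groups did not overlap. PBS mice without insulin were at 1507 to 1973 TPM.

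*Lep*, which encodes leptin and is made by adipocytes, was at 11.9, 22.08, 27.67, 25.98 and 25.46 TPM in PBS + insulin mice and at 1.51, 4.33, 16.78, 3.02, 3.36 and 0.33 TPM in leptin + insulin mice. The fall passed the test (log2 change -2.17 ± 0.52, SE; edgeR adjusted p = 0.0433; DESeq2 adjusted p = 0.0857), but replicate 3 lay within the PBS + insulin range. Without insulin all 8 leptin mice were at 0 to 0.2 TPM, against 5.04 to 23.87 TPM with PBS. The 6 leptin + insulin mice all lay above the 8 leptin mice. The test of the difference in leptin effect gave an unadjusted p of 8.35e-06 and an edgeR adjusted p of 0.124, the smallest of the named genes. It passed the threshold without the 450s (edgeR adjusted p = 0.00873) and without leptin + insulin replicate 6 (edgeR adjusted p = 0.00839), and a fold against values this near 0 depends on the prior count.

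**Figure D3:**
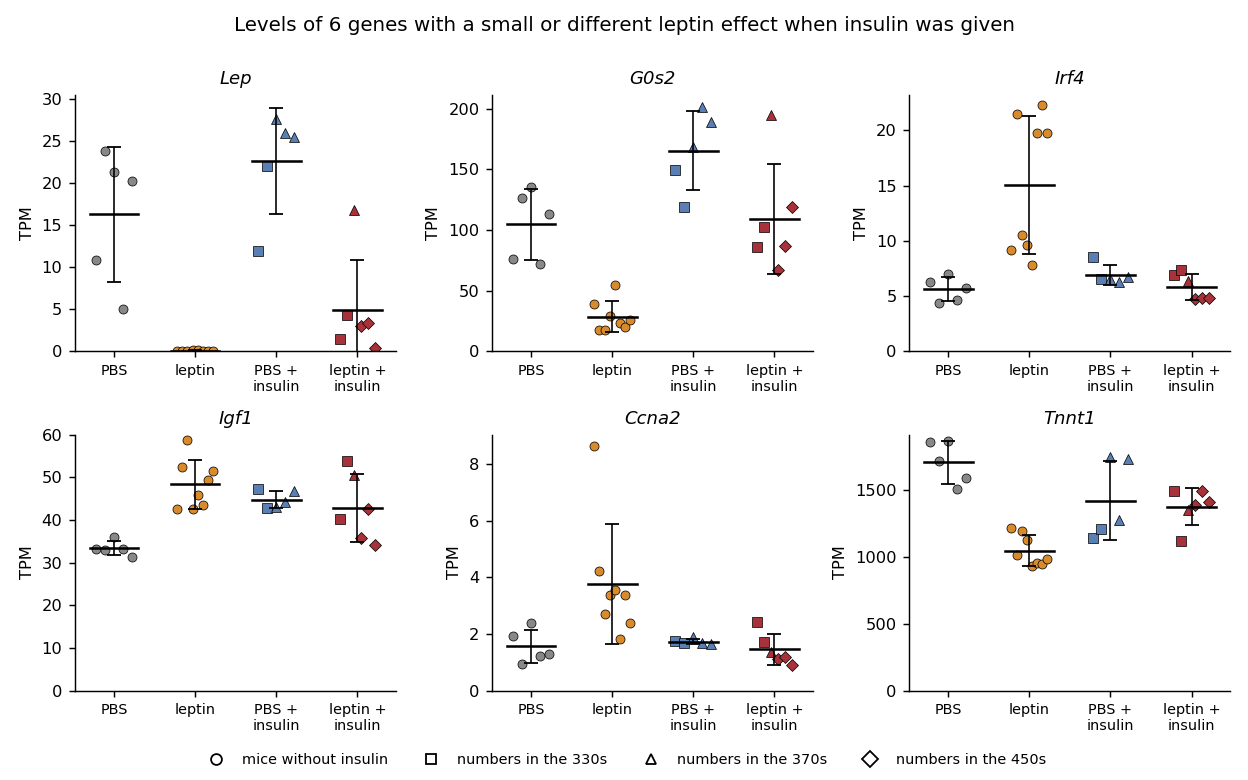
Level in TPM of 6 genes in male WT CV by group, 1 point per mouse, with the mean and SD (the lower bar of *Lep* in leptin + insulin is cut at 0). *Lep* was at 0 to 0.2 TPM in leptin mice and 0.33 to 16.78 TPM in leptin + insulin mice, while *Irf4*, *Ccna2* and *Tnnt1* differed between PBS and leptin mice without insulin and overlapped between the insulin groups.

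Leptin-responsive genes chosen in females were set beside both male comparisons, since those 10 mice enter neither. Their mouse numbers fall in the same runs as those of the males without insulin, and no insulin mouse is in these runs. The choice of genes can therefore favour the comparison without insulin. In the gap between the male comparisons, insulin and the run of numbers cannot be told apart. Of the 414 genes called higher in females (2.78%), 11 were called higher with insulin and 82 without, beside 0.141% and 1.29% of all tested genes. Their median log2 change was 0.07 with insulin, 0.39 in males without insulin and 0.82 in the females, and 61.4% were above 0 with insulin against 87.2% without, where 53.5% and 50.0% of all tested genes were. Of the 335 called lower in females (2.25%), 33 were called lower with insulin and 94 without, beside 0.417% and 1.18% of all tested genes. Their medians were -0.28 with insulin, -0.42 in males without insulin and -0.73 in the females. With insulin 82.1% were below 0 against 95.2% without, where 46.4% and 49.9% of all tested genes were. Fewer calls with insulin were also found over all tested genes, so the drop in calls is not particular to the chosen genes. The medians of all tested genes were 0.01 with insulin and 0.00 without.

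Among the falls, fat-enriched genes had the medians closest to those without insulin. Genes were called fat-enriched when their mean in female WT mice on PBS was at least 5 times the LV mean in both CV and iWAT and at least 0.4 TPM in each, which 12.3% of tested genes met. Of the 62 genes called lower with insulin 39 were fat-enriched (62.9%), and of the 21 called higher 3 were. The 159 fat-enriched genes among those lower in females had a median log2 change of -0.40 with insulin and -0.43 without. Of these, 27 were called lower with insulin and 58 without (beside 0.417% and 1.18% of all tested genes). The rest of the 335 lower genes had medians of -0.18 and -0.39. The 391 higher genes that were not fat-enriched had medians of 0.07 and 0.38. Of these, 9 against 73 were called higher (beside 0.141% and 1.29% of all tested genes). The differences between these sets of genes were not tested. Without the 450s these medians were -0.35, -0.20 and 0.14, and without leptin + insulin replicate 4 they were -0.39, -0.26 and 0.12. The fat-enriched falls had a median of -0.45 within the 330s and -0.21 within the 370s, whose 1 leptin mouse is replicate 3.

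**Figure D4:**
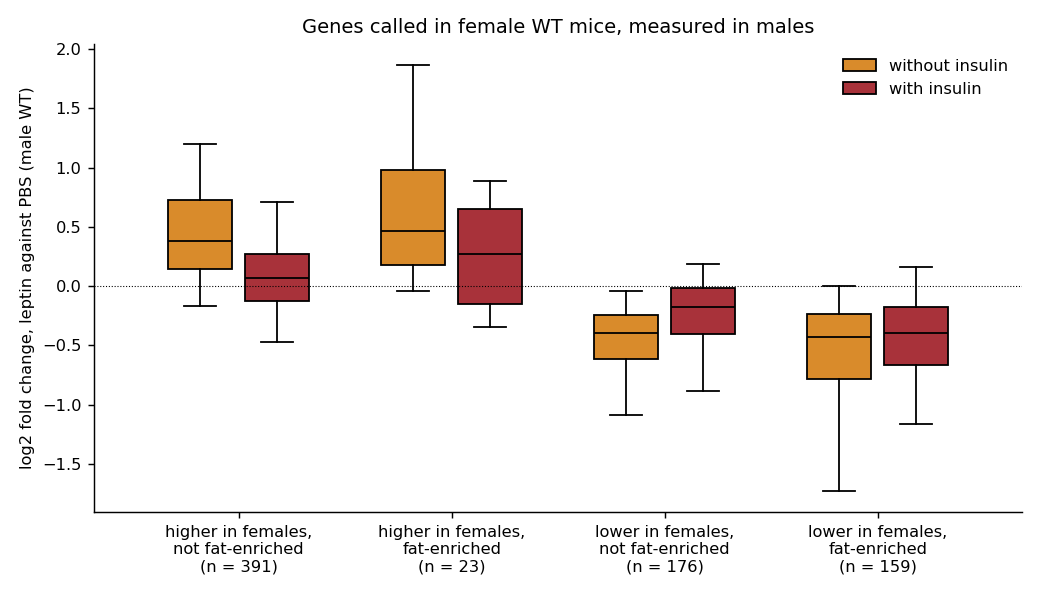
Log2 fold change of leptin against PBS in male WT CV, without and with insulin, for genes called in female WT CV, split by direction in females and by fat enrichment. Boxes show the median and quartiles and whiskers the 5th and 95th percentiles over genes. The median of the 391 rises that were not fat-enriched went from 0.38 to 0.07, and that of the 159 fat-enriched falls from -0.43 to -0.40.

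Of 16 cell division genes, 6 were called higher in males without insulin (beside 1.29% of all tested genes) and 15 in females (beside 2.78%). None was called with insulin, where 0.141% of all tested genes were called higher, so having none is near that share. At an unadjusted p below 0.05 the test of the difference in leptin effect picked 8 of the 16, beside 9.31% of all tested genes. The median log2 change was 0.11 with insulin, 0.96 in males without insulin and 1.12 in females. The summed level was 29.63 to 46.26 TPM with leptin and insulin and 35.16 to 41.39 TPM with PBS and insulin, so the leptin mice spanned the PBS mice. *Ccna2*, cyclin A, was at 1.74, 1.69, 1.89, 1.68 and 1.64 TPM with PBS and at 0.91 to 2.43 TPM (median 1.27) with leptin, a log2 change of -0.20 (95% interval -0.85 to 0.44) beside 1.23 without insulin. *Nusap1* and *Prc1*, which organise the mitotic spindle, had log2 changes of -0.13 and -0.21 with insulin and 0.53 and 1.09 without. Within the 330s and the 370s the median of the 16 genes was 0.22 and 0.25, and in the 450s against all PBS + insulin mice it was -0.00.

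Other genes are named for the smallest unadjusted p of a difference in leptin effect. *Irf4*, a transcription factor of lymphocytes and adipocytes, was at 8.52, 6.5, 6.52, 6.29 and 6.68 TPM with PBS and at 4.74 to 7.31 TPM (median 5.6) with leptin, where leptin without insulin gave 7.85 to 22.27 TPM against 4.36 to 6.98. The difference in its log2 change was -1.62 (95% interval -2.31 to -0.93; edgeR adjusted p = 0.194). *Igf1*, insulin-like growth factor, was at 42.81 to 47.27 TPM with PBS and 34.13 to 53.91 TPM with leptin, and its log2 change was -0.02 (95% interval -0.19 to 0.15) against 0.48 without insulin. In PBS + insulin mice *Igf1* already lay above the 31.43 to 36.08 TPM of PBS mice without insulin, a gap in which insulin and the run of numbers cannot be told apart.

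The muscle genes *Tnnt1*, *Tnnc1* and *Mb* had log2 changes of 0.02, 0.17 and 0.25 with insulin and -0.75, -0.75 and -0.77 without. *Tnnt1* and *Tnnc1* are troponins of slow muscle and *Mb* is myoglobin. They moved with the summed muscle markers, which without insulin were 31210 to 58170 TPM in leptin and 57330 to 71370 TPM in PBS mice. The part of those markers in these differences was not tested. Of the 16 muscle markers 10 had a negative change with insulin and 12 without, with medians of -0.09 and -0.40. Without the 450s the median with insulin was -0.34, and the 3 genes were at -0.11, 0.00 and -0.09. The median was -0.25 within the 330s and -0.44 within the 370s. *Pdlim5* and *Gdpd3* had positive estimates with insulin (0.34 and 0.67, edgeR adjusted p = 0.135 and 0.188) and negative ones without it (-0.40 and -0.69). *Ptbp1*, *Rpn2*, *Sh3rf1* and *Rerg* had log2 changes of -0.17, -0.23, -0.28 and -0.12 with insulin and 0.20, 0.13, 0.27 and 0.54 without. Over all genes no difference in leptin effect passed an adjusted p of 0.05 in edgeR, where 1385 (9.31%) had an unadjusted p below 0.05. DESeq2 called 21, 6 higher and 15 lower, but its filter on low counts gave an adjusted p to 1032 genes and left out *Lep*. Of the named genes these 21 hold *Igf1*, *Tnnt1*, *Tnnc1*, *Mb*, *Pdlim5*, *Ptbp1* and *Rpn2*. With that filter off, an alternative added after the data were seen, DESeq2 called 8 of 14859 genes: *Lep* (DESeq2 adjusted p = 0.000803), *Irf4*, *Igf1*, *Tnnt1*, *Tnnc1*, *Pdlim5*, *Rpn2* and *Crtac1*, a cartilage matrix gene named after its values were seen. These genes thus passed in DESeq2 and not in edgeR, and limma called 0 at either pseudocount.

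**Figure D5:**
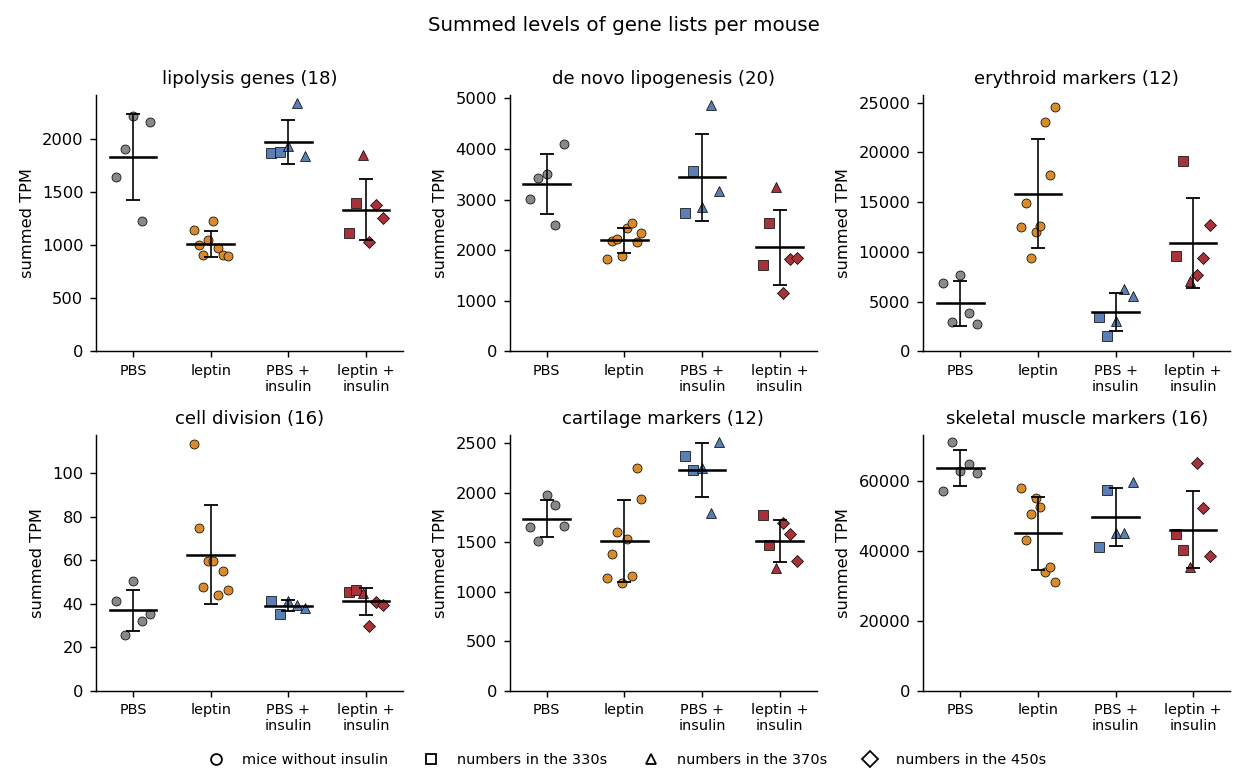
Summed TPM of 6 gene lists per mouse in male WT CV, with the mean and SD of each group; numbers in brackets give the genes summed. With insulin the lipolysis groups overlapped by 1 mouse (1847 TPM with leptin against a PBS minimum of 1839 TPM), the lipogenesis, cell division and muscle groups overlapped, and the erythroid and cartilage groups did not. The erythroid sum is largely made of the globin genes *Hba-a1*, *Hba-a2* and *Hbb-bs*.

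The remaining lists gave few calls with insulin, where 0.558% of all tested genes were called. Lists this short with no call are near that share. No gene was called among 27 of insulin signalling and glucose uptake, 15 adipogenic transcription factors, 22 of fatty acid oxidation, 21 of cholesterol synthesis, 14 of the glucocorticoid response, 16 of the clock, 23 of the BMP and activin pathway, 12 of the interferon response, 11 of the marrow stromal niche, 14 other lipases and droplet proteins or 10 of thermogenic fat. Among markers of cells, none was called of 16 for muscle, 8 for keratinocytes, 13 for osteoblasts and osteocytes, 10 for osteoclasts, 13 for neutrophils, 10 for the B lineage, 11 for T and NK cells and 12 for macrophages, while *Madcam1* was the 1 of 12 endothelial markers called. These counts are by edgeR and by the same thresholds. *Mylk2* and *Trim63*, genes of skeletal muscle outside the muscle list, were looked at after their values were seen. Both were called higher with insulin (log2 changes of 0.71 and 1.15, edgeR adjusted p = 0.0495 and 0.0467), and their groups overlapped. Neutrophil markers had a median log2 change of 0.72 with insulin and -0.03 without, with summed levels of 1163 to 4732 TPM with leptin and 1356 to 2661 TPM with PBS, which overlap. The glucocorticoid list had a median of 0.65 with insulin, but its sum was 1628 to 2876 TPM in 5 leptin + insulin mice and 8345 TPM in replicate 6, beside 1356 to 1964 TPM with PBS. Osteoblast and osteocyte markers summed to 5815 to 7303 TPM with leptin and 7500 to 8591 TPM with PBS and did not overlap, with a median log2 change of -0.25, and PBS mice without insulin were at 3864 to 7333 TPM.

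The same 83 genes were followed in mice of the series without insulin that share no library with the insulin groups. In the CV of mice lacking ATGL in marrow adipocytes (BMAd-*Pnpla2*-/-), all 62 falls were lower and 20 of 21 rises higher with leptin in males (4 leptin and 5 PBS) and again in females (4 and 4), on the scale of mean log2(TPM + 1). The share of all tested genes that were lower was 61.3% and 62.6%. In female WT iWAT 51 of the 62 falls and 12 of the 21 rises kept the direction, with medians of -0.78 and 0.02 and 52.7% of all genes lower. In female WT LV 25 of 62 and 10 of 21 did, with 37.1% of all genes lower.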

How the data were processed

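RNA from 79 samples had been sequenced by the authors as poly(A) libraries with paired reads of 100 bases; reads were aligned with HISAT and Bowtie2 to GRCm38.p6, per the paper's methods (the labels also list GRCm39). The counting tool is not given in the sources used here. The deposited tables held estimated counts of reads per gene (read counts) and TPM values, both made by the authors; 51 count values of 6 genes were not whole and were rounded. The 14873 genes with a mean TPM of at least 0.4 were tested with edgeR 4.0.16 (R 4.3.3; TMM scaling, quasi-likelihood test, Benjamini-Hochberg adjustment) on the 24 male WT CV libraries in 4 groups, and on 10 female WT CV libraries apart. Depth was 17765021 to 18487233 counts in the insulin groups. No 2 libraries of a group agreed within sampling noise. DESeq2 1.42.0, limma 3.58.1 on log2(TPM + 1) and log2(TPM + 0.1), other scaling and filters, covariates and each mouse left out were run as alternatives. DESeq2 was also run with its filter on low counts off, chosen after seeing the data. On simulated counts with a log2 change of 1, the test recovered 179 of 200 changed genes, with 1 false call, for leptin with insulin over the 14873 genes. With a log2 change of 1.5 it recovered 192 of 200, with 5 false calls (2.54% of the calls). The simulated mice had no effect of the run of numbers, and genes of low count were not changed. Recovery and false calls may therefore differ in the real data.

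Named genes were the 10 largest rises and falls called with insulin whose groups did not overlap and whose mean was at least 1 TPM; called members of the lists; the 18 lipolysis genes and 7 lipid genes; the 5 genes called in both sexes that kept most and least of their effect; and the 5 smallest p for a difference in leptin effect in each direction. The members and lists were chosen with earlier results of these data known. Runs of mouse numbers are read from the labels and are not stated to be batches. The authors' columns of comparisons were not used.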

Additional observations from a re-analysis of the deposited data

Results flagged for a closer look

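Of the named genes and list sums tested in each insulin group, 14 (7.45%) had a mouse far from its group by Dixon's criterion, where chance gives about 1 in 20. Leptin + insulin replicate 3 was the highest in 6 of them: *Lep* at 16.78 TPM (next 4.33), *Mest* at 60.48 TPM (next 24.44), *Mmd* at 75.67 TPM (next 51.65), *Me1* at 46.65 TPM (next 35.3), *Slc16a12* at 2.12 TPM (next 1.25) and the osteoblast and osteocyte sum at 7303 TPM (next 6273). In each its value lay on the side of the PBS + insulin mice. It is the 1 leptin mouse of the 370s.

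Leptin + insulin replicate 6 was the highest in 3: *2010106E10Rik* at 23.76 TPM (next 8.93), *Slc39a8* at 20.35 TPM (next 13.83) and the glucocorticoid sum at 8345 TPM (next 2876). Among PBS + insulin mice, replicate 1 was the highest in *Irf4* at 8.52 TPM and in the T and NK cell sum at 86.67 TPM. Replicate 4 was the lowest in *Gsta4* at 44.18 TPM and the highest in the lipolysis sum at 2342 TPM. Replicate 5 was the lowest in *Sh3rf1* at 2.89 TPM.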

How the results depend on the processing

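The count of 83 genes for leptin with insulin was within 1.5 times under other scaling, no filter on low values, filterByExpr, limma, a muscle covariate (107) and a fit of the insulin mice alone (106). DESeq2 called 230 with insulin (1.55% of tested genes, where edgeR called 0.558%), 21 for the difference in leptin effect and 100 of the genes chosen in females, where edgeR called 44. With its filter on low counts off, added after the data were seen, it called 229 (1.54%), 8 and 99. With the run of mouse numbers as a covariate these were 2 (0.0134%), 1 and 2, and without the 450s 3 (0.0202%), 1 and 3. At any fold 131 genes (0.881%) were called with insulin and 694 without, and at a log2 change of 1, 20 (0.134%) and 131, with 13 of the female-chosen genes. The muscle covariate left 220 genes without insulin. Leaving out 1 mouse at a time gave 0.0605% of genes (9, without PBS + insulin replicate 2) to 1.19% (49 higher and 128 lower, without leptin + insulin replicate 3) with insulin, 192 (without PBS replicate 2) to 468 without insulin, 0 to 1 for the difference, and 8 to 85 (the same 2 mice) for the female-chosen genes. The 1 gene was *Lep* each time. The causes of these shifts were not tested.

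Replicate numbers did not pair the mice: same-numbered deviations correlated at 0.0876, -0.0196, 0.1204, -0.1873 and 0.0692 in the insulin groups, and replicate 3 alone correlated best with its own number. With the replicate block 87 genes were called with insulin, 65 of them among the 83, and 1 for the difference in leptin effect.

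Of 33 named genes past the adjusted p with insulin, 0 changed sign in any setting, and *Madcam1* and *Slc22a14* passed in all. The adjusted p was missed most often for *Sucnr1* (24 of 36 settings), *Mmd* (22), *Gpt* and *Col11a1* (18 each), *Lep* (17), *Slc39a8* (16) and *Tshr* (14). Sign changes were in 5 genes far from the threshold. *Tnnt1* was -0.0283 in limma at either pseudocount, -0.0170 with the run covariate, -0.108 without the 450s and -0.0485 to 0.111 leaving out 1 mouse. *Igf1* was 0.0974 with the run covariate, 0.0925 without the 450s and -0.072 to 0.0345 leaving out 1 mouse. *Ccna2* was 0.0126 and 0.0839 with the run covariate and without the 450s, *Mb* -0.0166 and -0.0943, and *Prc1* 0.0206 without the 450s.

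Depth differed little among the insulin libraries. With 6 and 5 mice in 3 runs of numbers, 1 of them without a PBS mouse, the number of called genes moved with single mice.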

Other observations

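Collagen genes are a family that the lists did not hold and were looked at after their values were seen. Of 40 tested, 37 had a negative log2 change with insulin and 27 without, and the medians were -0.54 and -0.13 (-0.26 in females). Of all tested genes 46.4% and 49.9% had a negative change. With insulin 4 were called, all lower, where the background was 0.417% of genes lower: *Col15a1*, *Col11a1*, *Col6a1* and *Col6a2*. None was called in males without insulin by edgeR. *Col6a1* and *Col6a2*, chains of the microfibrillar collagen VI around fat cells and muscle fibres, had log2 changes of -0.56 and -0.59 with insulin (edgeR adjusted p = 0.0495 and 0.0318) and 0.02 and 0.05 without. The changes of *Col6a2* were -0.74 within the 330s, -0.40 within the 370s and -0.61 for the 450s against all PBS + insulin mice. Cartilage markers (12 of 12 with a negative change, median -0.51) and the osteoblast and osteocyte sum (5815 to 7303 TPM with leptin, 7500 to 8591 TPM with PBS) moved with the collagens, and their part in the collagen changes was not tested.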
